A study of Homo sapiens with 6 samples.

Results

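The kinesin motor genes were examined in MDA-MB-231-DR cells from sequenced RNA. These are doxorubicin-resistant cells of MDA-MB-231, an established human triple-negative breast cancer line with mesenchymal features. The protein-coding genes whose symbol opens with KIF or KIFC followed by a digit were taken, which gave 43 of the 19817 protein-coding genes in a table of 58302 genes. Of these, 42 encode motors and 1, KIF1BP, encodes a protein that binds kinesins, so it is given apart. The comparison was between 3 libraries of control MDA-MB-231-DR cells and 3 libraries of the same cells after treatment with cyperotundone (CYT), a sedge compound. The dose and time of CYT for these libraries are not given in the sources used here. Both groups come from 1 resistant line, whose medium holds a low level of doxorubicin by the methods of the study. Whether it was present during the CYT treatment is not stated. The labels do not say whether the libraries come from separate cultures, and the general statistics of the study speak of independent experiments without naming the sequencing. P-values then measure the spread between these libraries, which may be technical.

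Kinesins are ATP-driven motors that step along microtubules or shorten their ends. Mitotic kinesins build the spindle, align chromosomes and drive cytokinesis, and many are made late in the cell cycle, so dividing tumour cells hold much of their RNA. Transport kinesins carry vesicles, endosomes and organelles through the cytoplasm of resting and dividing cells alike. The motors were therefore sorted by known role into 14 mitotic, 17 transport and 11 other genes, the last with roles in cilia, centrioles or elsewhere. Of these, 12 mitotic, 14 transport and 6 other genes passed edgeR's filter on low counts, 32 of the 42 motors.

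Control libraries held 14050849 to 17770102 counts and CYT libraries 13056270 to 14106017. The library numbered 2 stood apart in both groups, as shown for the kinesins after the class results. Of the MDA-MB-231 markers VIM, CD44, MSN, CAV1 and AXL, all 5 passed the filter, and their summed level was 4460 to 4870 CPM in control and 2280 to 2410 CPM in CYT libraries. CPM is the count scaled to the library size after TMM normalization. VIM and AXL were called lower (log2 fold changes -1.30 and -0.82), joined by MSN and CAV1 with the replicate number as a block. Of 6 luminal or epithelial markers, ESR1, PGR, CDH1 and EPCAM did not pass the filter. ERBB2 and GATA3 did, and they summed to 43.3 to 86.7 CPM in control and 20.1 to 54.5 CPM in CYT libraries, mostly from ERBB2, which was called lower with that block alone. Of 6 markers of leukocytes, endothelium or neurons, CD3E and SNAP25 had 0 counts in every library, and the 2 that passed the filter summed to 1.49 to 3.16 CPM in control and 1.83 to 3.18 CPM in CYT libraries. KIF11, KIF20A and KIF5B, 2 mitotic motors and 1 transport motor, were detected in every library.

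CYT treatment lowered 9 of the 32 tested kinesin motors and raised 1 (edgeR's quasi-likelihood test, adjusted p under 0.05). The motor that rose, KIF25, passed the filter on low counts only through the CYT libraries. Of all 15572 genes tested, 12.9% were called lower and 15.7% higher, and of the protein-coding genes in the same fit 14.6% were called lower and 12.5% higher. The kinesins were thus called lower in 28.1% and higher in 3.12%. The log2 fold change was negative in 25 of the 32 motors (78.1%, against 49.7% of all genes), with a median of -0.32 against 0.0064 over all genes. All CYT libraries lay under all control libraries in 12 of the 32 motors (37.5%), against 22.7% of all genes. Together the motors took 0.227% to 0.255% of all counts in control and 0.137% to 0.143% in CYT libraries. In bulk RNA, fewer cells that express a gene and less RNA per cell cannot be told apart.

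The classes differed in how many members were called. Of the mitotic kinesins, 6 of 12 (50%) were lower and 0 higher, with a median log2 fold change of -0.76 and a range from -2.92 to 0.22. Of the transport kinesins, 2 of 14 (14.3%) were lower and 0 higher, a share close to the 14.6% of protein-coding genes, with a median of -0.36 and a range from -2.16 to 0.49. Of the other kinesins, 1 of 6 was lower and 1 higher, with a median of -0.07. The mitotic calls depended on single libraries. Without control replicate 1 they were KIF18B, KIF20B and KIF23, and without CYT replicate 3 they were KIF18B, KIF20A and KIF20B. The transport calls, KIFC3 and KIF16B, stayed in both fits, where 7.49% and 8.13% of all genes were called lower. Without CYT replicate 2, KIF11 joined the mitotic calls. The difference between the classes was not tested, since genes are not replicates and the classes were drawn up with earlier results known. Of the 4 mitotic kinesins that define the contrast, KIF20A, KIF23 and KIF2C were called lower and KIF11 was not, with a median of -1.10. Without control replicate 1 only KIF23 of the 4 was called, and without control replicate 2, CYT replicate 1 or CYT replicate 3 only KIF20A was. Without control replicate 3 both KIF20A and KIF23 were called, and without CYT replicate 2 all 4 were.

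**Figure D1:**
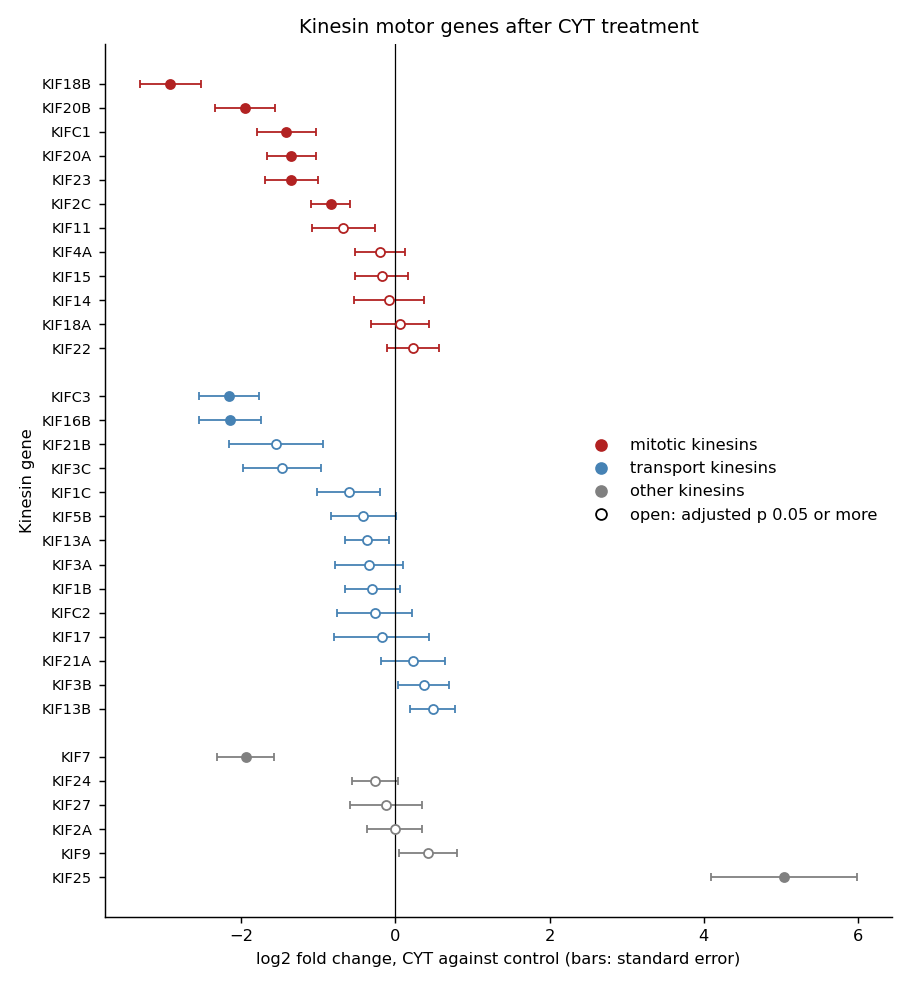
Log2 fold change of CYT against control (horizontal axis) for each of the 32 tested kinesin motors, by class, with standard errors as bars and filled points for an adjusted p under 0.05. The 6 filled mitotic kinesins lie between -2.92 and -0.84, and the transport kinesins include 2 filled points, KIFC3 (-2.16) and KIF16B (-2.15), 2 low open points, KIF21B (-1.55) and KIF3C (-1.47), and 10 open points between -0.61 and 0.49.

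The mitotic kinesins called lower were KIF18B, KIF20B, KIF23, KIF20A, KIFC1 and KIF2C. KIF18B (chromosome 17, 44924709 to 44947711, minus strand, GRCh38) encodes a motor that works at the plus ends of astral microtubules. Its raw counts were 1247, 886 and 1001 in control and 175, 81 and 99 in CYT libraries. Every CYT library was low and the groups were far apart, at 65.5 ± 16.1 CPM (SD, n = 3) against 8.66 ± 3.36 CPM (SD, n = 3). Expressed as a log2 fold change this was -2.92 (standard error (SE) 0.39, adjusted p = 0.00117, edgeR's quasi-likelihood test), the lowest of all kinesins. At 3 libraries a group, the smallest two-sided p of an exact permutation test for 1 gene is 0.1, the value of every kinesin whose groups did not overlap.

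KIF20B (chromosome 10, 89701610 to 89774939, plus strand) and KIF23 (chromosome 15, 69414246 to 69448427, plus strand) encode motors needed for cytokinesis. KIF20B had 601, 1152 and 613 counts in control and 130, 261 and 116 in CYT libraries. Control 2 and CYT 2 were the highest of their groups, yet the groups did not overlap, and KIF20B fell by 1.95 on the log2 scale (SE 0.39, adjusted p = 0.00559, edgeR's quasi-likelihood test). KIF23, the motor subunit of the centralspindlin complex, had 1071, 1477 and 870 counts in control and 309, 553 and 255 in CYT libraries. The replicates numbered 2 were again the highest, and all CYT libraries lay below all control libraries. KIF23 was downregulated by a log2 fold change of -1.35 (SE 0.34, adjusted p = 0.0167, edgeR's quasi-likelihood test). Its call was lost without control replicate 2 (adjusted p = 0.0540), CYT replicate 1 (0.0688) or CYT replicate 3 (0.0628), by the same edgeR test.

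KIF20A (chromosome 5, 138178719 to 138187715, plus strand) encodes the motor that brings the Aurora B complex to the spindle midzone. It had 3037, 1998 and 2188 counts in control and 965, 737 and 714 in CYT libraries. All CYT libraries were lower, the closest pair being control 2 at 106 CPM and CYT 1 at 68.1 CPM. The log2 fold change of KIF20A was -1.35 (SE 0.31, adjusted p = 0.0114, edgeR's quasi-likelihood test), and without control replicate 1 it was -1.16 (adjusted p = 0.0511, same edgeR test). KIF20A overlaps BRD8 and CDC23 on the opposite strand, and whether counting used strand is not given in the sources used here.

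KIFC1 (chromosome 6, 33391536 to 33409924, plus strand) encodes a minus-end-directed motor that focuses spindle poles and gathers extra centrosomes in cancer cells. Its counts were 3563, 2687 and 2662 in control and 1278, 516 and 1019 in CYT libraries. The libraries numbered 2 were the lowest of their groups in CPM, with no overlap between the groups. The fall of KIFC1 was 2.67-fold, a log2 fold change of -1.42 (SE 0.38, adjusted p = 0.0215, edgeR's quasi-likelihood test). Its call was lost without control replicate 1 (adjusted p = 0.0754), control replicate 3 (0.0688) or CYT replicate 3 (0.0505), by the same edgeR test.

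KIF2C (chromosome 1, 44739818 to 44767767, plus strand), the microtubule-shortening motor that corrects faulty kinetochore attachments, had the smallest called fall and the tightest replicates. Its counts were 3886, 4464 and 3554 in control and 1996, 1865 and 1716 in CYT libraries. All 3 CYT libraries lay close together and well below the controls, at 137 ± 4.02 CPM (SD, n = 3) against 245 ± 9.50 CPM (SD, n = 3). For KIF2C the log2 fold change was -0.84 (SE 0.26, adjusted p = 0.0347, edgeR's quasi-likelihood test). That test shares information on spread across genes, and the call of KIF2C was lost in 9 of 18 alternatives. These include leaving out control replicate 1 (adjusted p = 0.0865), 2 (0.0819) or 3 (0.122), or CYT replicate 1 (0.107) or 3 (0.0971), in the same edgeR test.

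KIF11 (chromosome 10, 92593286 to 92655395, plus strand) encodes the motor that pushes the spindle poles apart, and inhibitors of it arrest cells in mitosis. Its counts were 1293, 2481 and 1015 in control and 601, 1326 and 529 in CYT libraries. CYT 2 (94.4 CPM) lay above control 1 (80.2 CPM) and control 3 (73.0 CPM), so the groups overlapped, while each CYT library was below the control of the same number in 3 of 3 pairs. KIF11 was not called (log2 fold change -0.67, SE 0.41, adjusted p = 0.244, edgeR's quasi-likelihood test). With the replicate number as a block it was called lower (-0.73, adjusted p = 0.0383, same test), as it was without CYT replicate 2 (-1.17, adjusted p = 0.0204) and without both libraries numbered 2 (-0.82, adjusted p = 0.0161). Without control replicate 2 its log2 fold change was -0.32 (adjusted p = 0.627, same edgeR test).

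The remaining tested mitotic kinesins were not called and lay near 0. Their log2 fold changes were -0.20 for KIF4A and 0.22 for KIF22, which bind chromosome arms, -0.18 for KIF15, which assists KIF11 in keeping the spindle bipolar, -0.08 for KIF14, which acts in cytokinesis, and 0.06 for KIF18A, which damps chromosome movements. KIF22, singled out after its values were seen, had 4375, 2934 and 2513 counts in control and 3182, 2378 and 3984 in CYT libraries. In CPM, CYT replicate 3 was the highest library (317) and control replicate 2 the lowest (156), so the groups of KIF22 overlapped. CENPE, the kinetochore kinesin whose symbol falls outside the name pattern, had 292, 740 and 466 counts in control and 161, 188 and 172 in CYT libraries. It was called lower (log2 fold change -1.24, SE 0.36, adjusted p = 0.0276, edgeR's quasi-likelihood test).

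**Figure D2:**
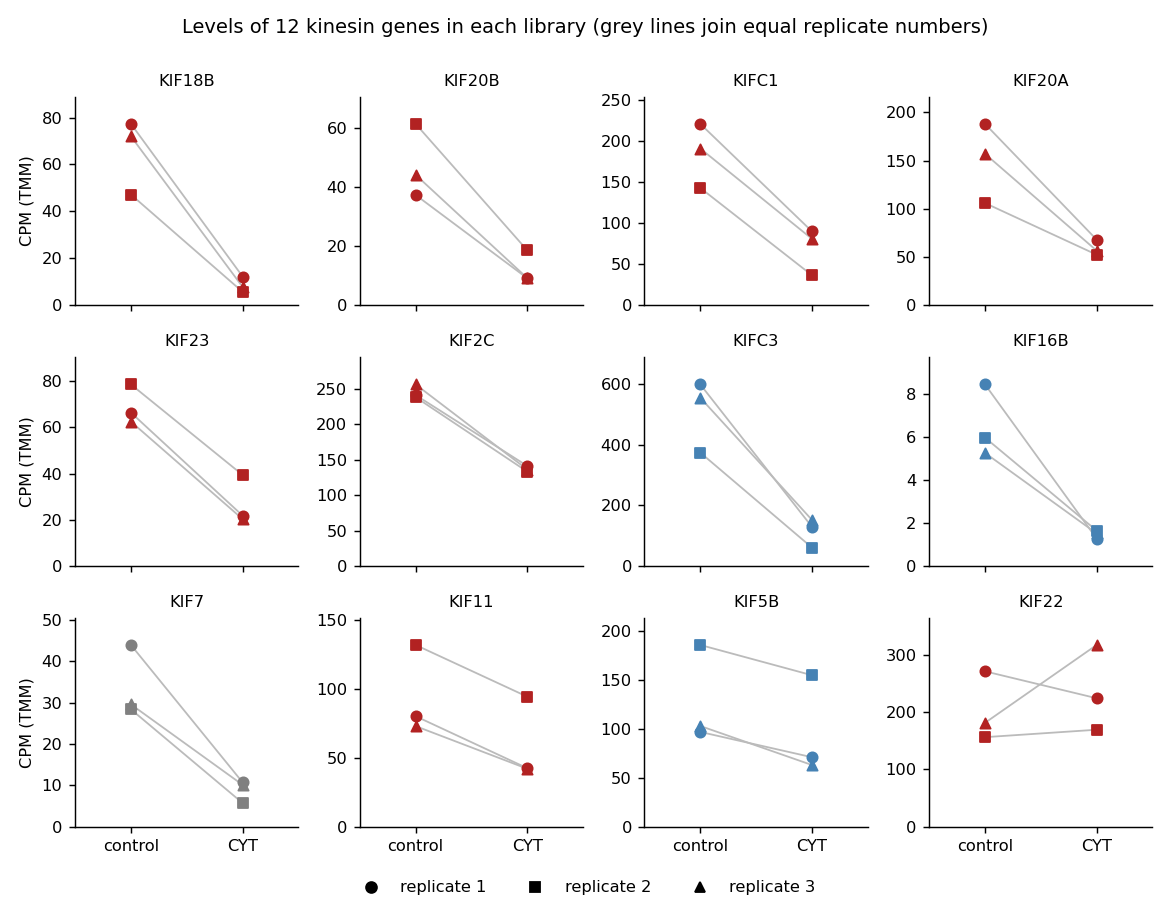
CPM after TMM scaling (vertical axes, from 0) of 12 kinesin genes in each of the 6 libraries, with symbols for the replicate number and grey lines that join equal numbers. In KIF18B, KIF20B, KIFC1, KIF20A, KIF23, KIF2C, KIFC3, KIF16B and KIF7 all CYT points lie below all control points, while in KIF11 and KIF5B replicate 2 is high in both groups and the groups overlap.

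Promoter sequence was described because the mitotic kinesins include genes that are switched on together late in the cell cycle. The promoters of such genes are known to hold a CHR element, TTTGAA, often downstream of CCAAT boxes. RefSeq windows on GRCh38.p14, from 250 bases before to 50 after each start site, were searched for these letters on both strands, and the motifs do not overlap each other. TTTGAA was found in 15.2% of all 35116 windows, in 10 of 14 mitotic kinesin genes (71.4%), in 1 of 12 transport genes with a window (8.33%) and in 0 of 8 other genes. CCAAT was found in 34.6% of all windows, in 11 of 14 mitotic genes (78.6%), in 4 of 12 transport genes (33.3%) and in 3 of 8 other genes (37.5%). KIF13B, KIF21B, KIF5A, KIFC2, KIFC3, KIF19, KIF26B and KIF27 had no window. The units differ, since the background is per window, while a kinesin gene counted if any of its windows held the motif. The 14 mitotic genes had 15 windows, the 12 transport genes 17 and the 8 other genes 11. Within the mitotic class TTTGAA was in 4 of the 6 genes called lower and in 5 of the 6 tested genes that were not. The stretches below show it in genes that fell, in genes that did not pass the test and in the 1 transport gene that holds it, written along each gene, with TTTGAA or its reverse complement TTCAAA in capitals.
KIF18B: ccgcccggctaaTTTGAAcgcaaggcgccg
KIF20B: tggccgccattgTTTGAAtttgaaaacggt
KIF23: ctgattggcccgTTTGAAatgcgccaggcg
KIFC1: tggccgttggaaTTCAAAagtggcgggtgt
KIF11: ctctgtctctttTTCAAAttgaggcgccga
KIF18A: aagtggcttgggTTTGAAtattgtggttga
KIF5B: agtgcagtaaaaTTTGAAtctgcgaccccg
These lie at chr17:44947754-44947783 (minus strand) for KIF18B, chr10:89701602-89701631 (plus) for KIF20B, chr15:69414282-69414311 (plus) for KIF23 and chr6:33391815-33391844 (plus) for KIFC1. Those of genes not called lie at chr10:92593090-92593119 (plus) for KIF11, chr11:28108149-28108178 (minus) for KIF18A and chr10:32056548-32056577 (minus) for KIF5B. KIF20B holds the motif a second time directly after the first. Counted from the start site as base 0, the capitals begin at base 2 in KIF18B and at base 4 in KIFC1, but at base -140 in KIF5B. KIF20A, which fell, holds CCAAT boxes without TTTGAA, and 1 of them is shown with its reverse complement in capitals.
KIF20A: cttccctatctgATTGGccgaacgaacgc
It lies at chr5:138179033-138179061 on the plus strand. A match describes these letters in the window and shows no binding.

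Among transport kinesins, 2 genes fell by more than 4-fold and the other 12 tested genes were not called. KIFC3 (chromosome 16, 57758217 to 57863053, minus strand) encodes a minus-end-directed motor linked to adherens junctions and vesicle transport. Its counts were 9665, 7018 and 7713 in control and 1835, 851 and 1915 in CYT libraries. The groups were widely separated, at 509 ± 119 CPM (SD, n = 3) against 114 ± 47.7 CPM (SD, n = 3), with replicate 2 the lowest of each. KIFC3 fell by 2.16 on the log2 scale (SE 0.39, adjusted p = 0.00382, edgeR's quasi-likelihood test). It took 0.0395% to 0.0557% of all counts in control and 0.00652% to 0.0143% in CYT libraries. All transport kinesins took 0.102% to 0.125% and 0.0585% to 0.0612%, and without KIFC3 they took 0.0551% to 0.0695% and 0.0454% to 0.0520%. KIFC3 overlaps the annotated genes AC092118.1 and AC092118.2 on the opposite strand.

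KIF16B (chromosome 20, 16272104 to 16573434, minus strand) encodes a motor that moves early endosomes. It was scarce, with 136, 112 and 73 counts in control and 18, 23 and 19 in CYT libraries. The CYT libraries were close together and below every control. The log2 fold change of KIF16B was -2.15 (SE 0.40, adjusted p = 0.00415, edgeR's quasi-likelihood test).

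KIF5B (chromosome 10, 32009010 to 32056431, minus strand), the widely expressed heavy chain that carries mitochondria, lysosomes and vesicles, had 1563, 3502 and 1426 counts in control and 1006, 2182 and 793 in CYT libraries. Replicate 2 was the highest library of both groups, and CYT 2 (155 CPM) lay above control 1 (96.9 CPM) and control 3 (103 CPM). KIF5B was not called (log2 fold change -0.42, SE 0.42, adjusted p = 0.494, edgeR's quasi-likelihood test), although CYT was below control in 3 of 3 numbered pairs. Its value was -0.0075 without control replicate 2, -0.94 without CYT replicate 2 and -0.54 without both, and it was not called in these fits. KIF1C, which moves vesicles towards the cell edge and had the highest mean level per length of the transport kinesins, had 5345, 2898 and 3060 counts in control and 2529, 1147 and 2557 in CYT libraries. Control 1 was high and CYT 2 low, and the groups overlapped (log2 fold change -0.61, SE 0.41, adjusted p = 0.298, edgeR's quasi-likelihood test). The value of KIF1C was -0.28 without control replicate 1 and -0.29 without CYT replicate 2.

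Both KIF3C and KIF21B had values near the threshold. KIF3C, a partner of KIF3A in a heteromeric motor, had 1505, 645 and 669 counts in control and 381, 127 and 346 in CYT libraries. Its groups did not overlap, though control 1 (93.3 CPM) was far above control 2 (34.3 CPM). KIF3C was not called (log2 fold change -1.47, SE 0.50, adjusted p = 0.0538, edgeR's quasi-likelihood test), but it was with the replicate block (-1.51, adjusted p = 0.00408), without control replicate 2 (-1.70, adjusted p = 0.0428) and without both libraries numbered 2 (-1.34, adjusted p = 0.0142). Without control replicate 1 its value was -0.96 (adjusted p = 0.219, edgeR). For KIF21B, a motor best known from neurons, the estimate was -1.55 on the log2 scale (SE 0.61, adjusted p = 0.0841, edgeR's quasi-likelihood test). It was called lower with the block (-1.68, adjusted p = 0.0156) and without CYT replicate 1 (-2.43, adjusted p = 0.0225), but not without control replicate 1 (-1.29, adjusted p = 0.230) or with the block and a correction for GC content and length (-1.24, adjusted p = 0.0677). DESeq2 called both KIF3C (adjusted p = 0.0177) and KIF21B (0.048), and edgeR without a filter called KIF3C (0.0226). In all, KIF3C was called in 7 of 18 alternatives and KIF21B in 3 of 17. The other tested transport kinesins were not called. Their log2 fold changes were -0.37 for KIF13A, -0.34 for KIF3A, -0.30 for KIF1B, -0.27 for KIFC2, -0.18 for KIF17, 0.23 for KIF21A, 0.36 for KIF3B and 0.49 for KIF13B. KIF3A and KIF3B are partners in the motor that builds cilia. In KIF13B all CYT libraries were above all control libraries, at 30.4 ± 5.05 CPM (SD, n = 3) in control and 42.6 ± 6.71 CPM (SD, n = 3) after CYT.

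In the other class, KIF7 (chromosome 15, 89608789 to 89655451, minus strand), which organizes the tip of the cilium in Hedgehog signalling, had 710, 534 and 412 counts in control and 152, 80 and 127 in CYT libraries. No CYT library came near the lowest control, with 34.0 ± 8.68 CPM (SD, n = 3) against 8.84 ± 2.74 CPM (SD, n = 3). KIF7 fell by 1.94 on the log2 scale (SE 0.37, adjusted p = 0.00443, edgeR's quasi-likelihood test). It overlaps TICRR on the opposite strand. KIF24, KIF27, KIF2A and KIF9, which act at centrioles, cilia and microtubule ends, had log2 fold changes of -0.27, -0.12, -0.01 and 0.42 and were not called. KIF2A was placed in this class, while KIF2B and KIF2C were placed in the mitotic class. The mitotic share and median thus leave out the KIF2A value, and they depend on this choice.

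KIF25 (chromosome 6, 167996241 to 168045089, plus strand), a motor linked to centrosome position, was the only kinesin called higher. It had 0, 3 and 0 counts in control and 17, 25 and 47 in CYT libraries, so it was nearly undetected before treatment and scarce after it. The summed counts, scaled to the library totals, gave a ratio of 35.9 with a 95% interval from 11.9 to 178 that covers counting error only. The adjusted p was 0.00431 (edgeR's quasi-likelihood test), and the fitted log2 fold change of 5.04 (SE 0.94) depends on the prior count. It passed the filter on low counts only through the CYT libraries, and without control replicate 2, which holds its only control counts, the fitted value was 8.0. KIF25 overlaps KIF25-AS1 on the opposite strand.

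The 10 motors that did not pass the filter had few counts throughout. KIF5A, a neuronal heavy chain, had 0 counts in every control library and 3, 10 and 15 in CYT libraries. That is 11.3-fold higher against a floor of 3 counts over the group without counts. KIF12 went the other way, from 12, 2 and 3 counts to 0 in every CYT library, 4.68-fold lower against the same floor. KIF6 had 0 counts in control and 0, 4 and 3 after CYT, 2.83-fold higher against that floor. The folds against the floor leave out the counting error of the group with counts. KIF26A had 0, 0 and 2 counts in control and 11, 0 and 6 after CYT, a scaled ratio of the sums of 10.3 (95% interval 2.44 to 91.9). KIF5C had 5, 10 and 16 counts in control and 4, 10 and 0 after CYT, a scaled ratio of the sums of 0.547 (95% interval 0.269 to 1.06). Both intervals cover counting error only, and in KIF26A and KIF5C the libraries of the groups overlapped. The summed counts of the remaining 5 were 12 and 11 for KIF1A, 27 and 23 for KIF26B, 27 and 22 for KIF4B, 0 and 3 for KIF19, and 0 and 2 for KIF2B. KIF4B is a near copy of KIF4A, so its reads may be split between both genes.

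Levels were compared between genes per length, as FPKM (counts scaled to gene length and library size), for the tested motors. In control cells KIF2C was the most abundant motor at 50.5 ± 3.39 FPKM, followed by KIFC1 at 43.2 ± 6.59 FPKM (SD, n = 3), which did not differ beyond that spread. A group of neighbours with overlapping spread came next, with KIF20A (25.8 ± 5.60 FPKM), KIF1C (25.3 ± 8.05), KIFC3 (24.9 ± 4.55), KIF22 (24.9 ± 5.85), KIF5B (21.2 ± 9.63) and KIF11 (19.6 ± 7.87). After CYT treatment, KIF22 (29.4 ± 7.25 FPKM) and KIF2C (28.6 ± 1.73 FPKM) had the highest means and did not differ beyond their spread. KIF1C (16.8 ± 6.20), KIFC1 (16.3 ± 6.24) and KIF5B (16.2 ± 9.69) followed, each with a spread that overlapped that of KIF22. KIFC3 fell to 5.62 ± 2.07 FPKM and KIF18B from 11.2 ± 2.19 to 1.51 ± 0.576 FPKM. KIF2C and KIFC1, which led in control cells, are mitotic motors, while KIF20A was not resolved from the transport motors KIF1C and KIFC3. The lowest of the tested motors in control cells were KIF25 at 0.0165 and KIF17 at 0.161 FPKM.

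**Figure D3:**
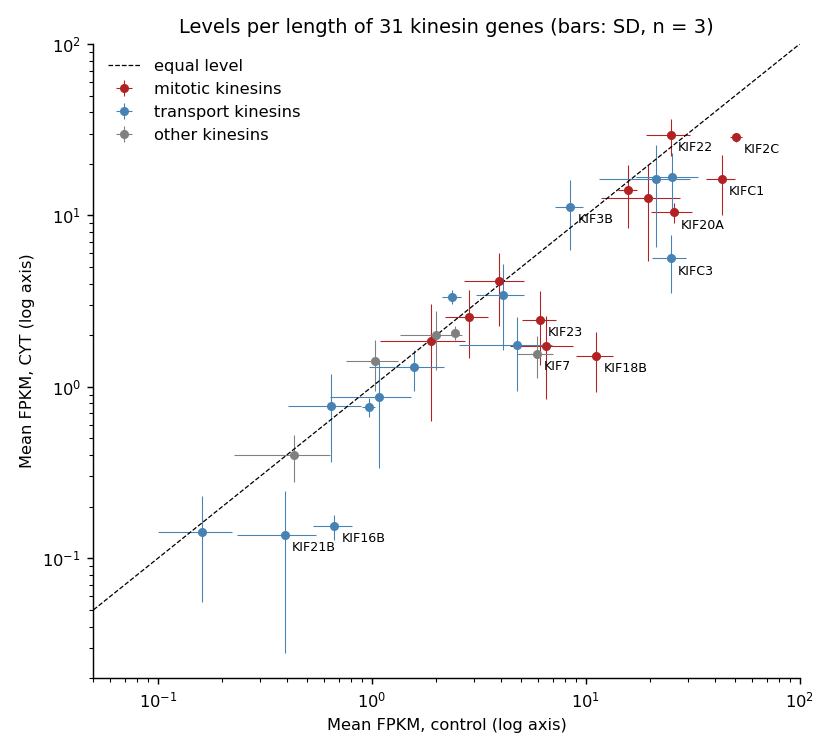
Mean FPKM in CYT (vertical, log axis) against control (horizontal, log axis) for 31 tested kinesin motors, with SD over 3 libraries as bars and a dashed line of equal level; KIF25, near 0 in control, is left out. KIF18B, KIFC3, KIF7 and KIF16B lie far below the line, and KIF22 (24.9 against 29.4 FPKM) lies on it within its spread.

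The libraries numbered 2 deviated in the same direction from the other libraries of their group in 28 of the 32 kinesins, against 73.7% of all genes. In 14 of them, among them KIF11, KIF5B, KIF20B and KIF23, replicate 2 was above the mean of replicates 1 and 3 in both groups. In another 14, among them KIFC3, KIFC1, KIF20A and KIF18B, it was below in both. The deviation followed base composition. The median GC content of the longest annotated transcript was 40.6% (34.2% to 51.8%) in the genes that were high in replicate 2 and 58.2% (48.4% to 68.1%) in those that were low. Across the 32 genes, which share the libraries, the deviation correlated with GC content with Pearson's r of -0.775 in control and -0.921 in CYT libraries (Spearman's rho -0.779 and -0.915), as a description. Over all 15542 genes with a GC value r was -0.479 and -0.714, so the pattern was not limited to kinesins. The log2 fold change between the groups had a Pearson's r with GC content of -0.111 across the 32 kinesins (Spearman's rho -0.2). When GC and length were adjusted for, single fold changes still moved, some up and some down. KIFC3 went from -2.16 to -1.65 and KIF7 from -1.94 to -1.58. In contrast, KIF20B went from -1.95 to -2.15 and KIF20A from -1.35 to -1.5. Without both libraries numbered 2, 11 motors were called lower, the 9 above with KIF11 and KIF3C, and KIF25 alone was called higher, where 19.6% of all genes were called lower. With the replicate number as a block, 12 were called lower (37.5%), adding KIF11, KIF3C and KIF21B. In that fit 19.8% of all genes and 22.6% of protein-coding genes were called lower. The mitotic and transport counts were then 7 (58.3%) and 4 (28.6%), with medians of -0.79 and -0.42.

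**Figure D4:**
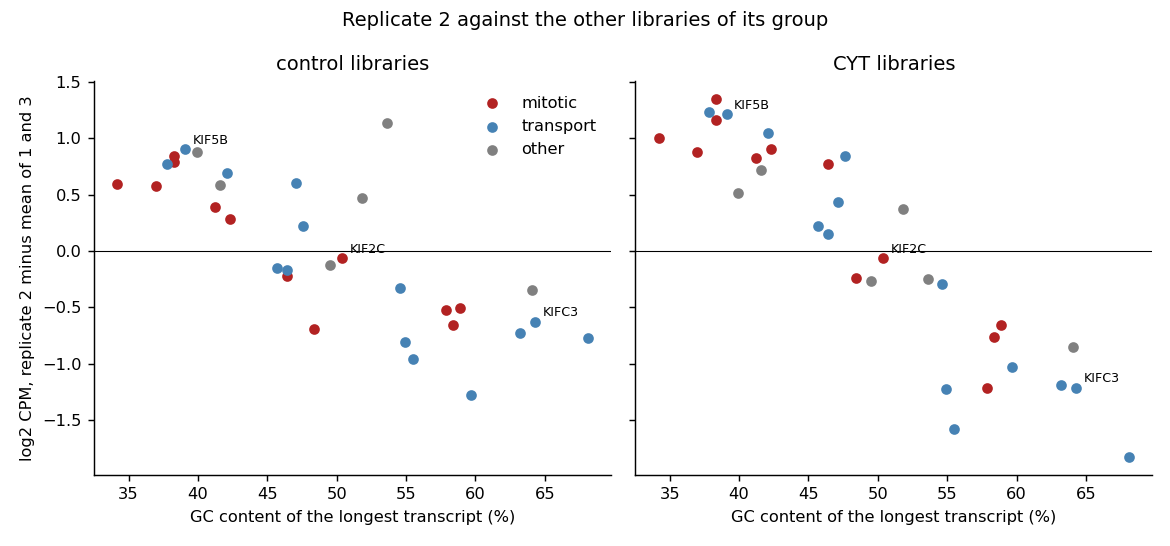
Difference in log2 CPM between replicate 2 and the mean of replicates 1 and 3 (vertical) against the GC content of each gene in percent (horizontal) for 32 kinesin motors, in control (left) and CYT libraries (right). AT-rich genes such as KIF5B lie above 0 and GC-rich genes such as KIFC3 below it in both groups, with r of -0.775 and -0.921.

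Cargo adaptors and partners of the motors were counted beside them. Of 20 tested light chains, adaptors and partners, 4 were lower (20%, against 14.6% of protein-coding genes) and 0 higher, with a median log2 fold change of -0.50. With the replicate block, 7 were lower (35%, against 22.6% of protein-coding genes in that fit) and 0 higher. Among those called lower were KIF1BP (-1.73) and FEZ2 (-1.16), an adaptor. KLC1, a light chain of KIF5B, was also called lower (-0.91, adjusted p = 0.0366, edgeR's quasi-likelihood test), while KLC2 was at 0.04 and not called. KIF1BP, which binds the motor domains of several kinesins, had 1152, 1414 and 987 counts in control and 324, 353 and 224 in CYT libraries. Its groups were far apart, with a SE of 0.29 and an adjusted p of 0.00268 (edgeR's quasi-likelihood test). KIFAP3, which links KIF3A and KIF3B to cargo, had a log2 fold change of 0.30 and was not called. Of 24 tested genes of dynein and dynactin, the opposing motor, 2 were lower (8.33%, against 14.6% of protein-coding genes) and 0 higher, with a median of -0.22. With the replicate block, 4 were lower (16.7%, against the same 22.6%) and 1 higher. These 2 were PAFAH1B1 (-1.28), a dynein regulator, and DYNC1I2 (-0.995), a dynein chain.

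Of 20 tested spindle and midzone partners of the mitotic kinesins, 6 were lower (30%, against 14.6% of protein-coding genes) and 0 higher, with a median log2 fold change of -0.69. With the replicate block, 9 were lower (45%, against 22.6%) and 0 higher. AURKB (-2.34), the midzone and kinetochore kinase carried by KIF20A, INCENP (-1.75), its scaffold, and ANLN (-1.57), a contractile ring protein, were the lowest. RACGAP1, the partner of KIF23 in centralspindlin, also fell (-1.05, SE 0.28, adjusted p = 0.0220, edgeR's quasi-likelihood test), whereas PRC1, the midzone crosslinker, was not called (-0.27, adjusted p = 0.551, same edgeR test). KLC1, KLC2, RACGAP1 and PRC1 were named after their values were seen. Of 25 G2 and M phase genes that are not kinesins, 9 were lower (36%, against 14.6% of protein-coding genes) and 0 higher, with a median of -0.64. With the block, 10 were lower (40%, against 22.6%) and 2 higher (8%, against 17.3%). The lowest were BUB1B (-3.33), PLK1 (-3.13) and NUF2 (-2.35), which act in the spindle checkpoint, mitotic entry and the kinetochore. The 2 called higher only with the block, named after their values were seen, were CDK1 (1.12, adjusted p = 0.0636 without the block and 0.00775 with it, edgeR), the kinase that drives mitotic entry, and LIN9 (0.999, 0.0559 and 0.0137), a regulator of late cell cycle genes. The summed level of the 25 genes moved with the mitotic kinesins, at 3540 to 3790 CPM in control against 2390 to 2990 CPM in CYT libraries. The part of cell cycle phase in the kinesin values was not tested. Of 18 S phase genes, 2 were lower (11.1%, against 14.6% of protein-coding genes) and 3 higher (16.7%, against 12.5%), with a median of 0.07. The counts were again 2 and 3 with the block, against 22.6% and 17.3% of protein-coding genes in that fit. CCNE2 (1.94) and MCM6 (1.13) rose and GINS1 (-1.11) fell.

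**Figure D5:**
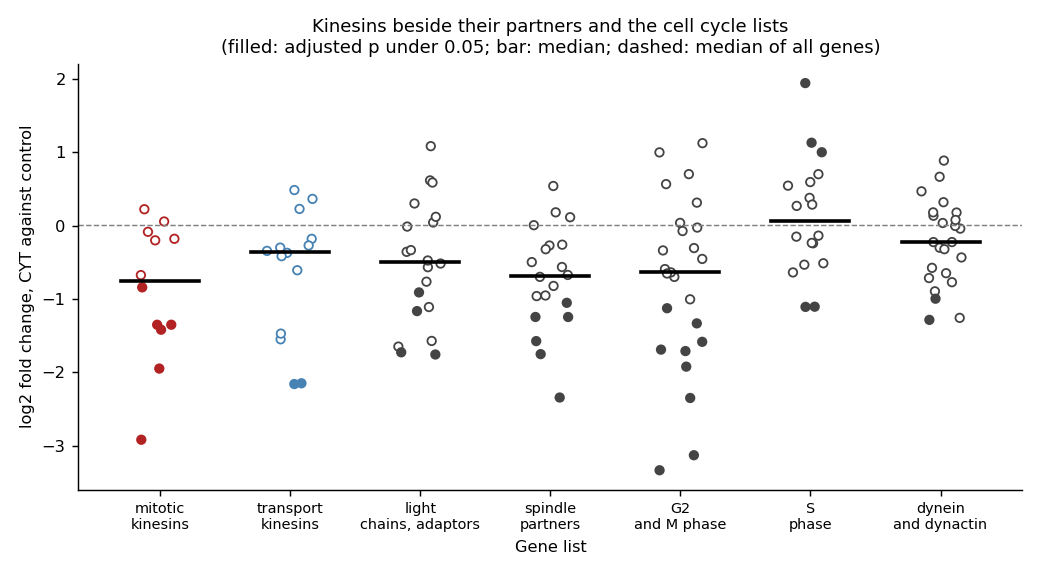
Log2 fold change of CYT against control (vertical) of each tested gene in 7 lists (horizontal), with filled points for an adjusted p under 0.05, black bars for the list medians and a dashed line for the median of all genes. The bars of mitotic kinesins (-0.76), spindle partners (-0.69) and G2 and M phase genes (-0.64) are below those of transport kinesins (-0.36), dynein and dynactin (-0.22) and S phase genes (0.07).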

How the data were processed

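The authors extracted total RNA, isolated mRNA, sequenced it, aligned clean reads with Hisat2 and deposited raw counts and FPKM values per gene. FastQC 0.12.1 and the build hg38 are named in the submitters' processing notes. The methods name Stringtie for FPKM and, for quantification, a program written as edge and taken here as edgeR, and the program and strand setting that made the raw counts are not given in the sources used here. In R 4.3.3, counts were scaled by TMM, filtered with filterByExpr (minimum count 10) and tested with edgeR 4.0.16 (quasi-likelihood, Benjamini-Hochberg over 15572 genes), after a test on simulated data. Called means an adjusted p under 0.05. Kinesin classes and the lists of partners, dynein, cell cycle and marker genes were chosen with earlier results of these data known. Raw counts are given for KIF11, KIF20A, KIF23, KIF2C, KIF5B, every called kinesin and the most abundant of each class, and for lists the 3 called genes with the largest change, of which 1 in the list of partners is not reported here. Motor domains were not described from protein sequence.

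Same-numbered libraries deviated together (correlations across genes of 0.188, 0.458 and 0.124, each over 0.1), which was taken as pairing from the labels' numbers. The pairs control 1 with CYT 3 (0.303) and control 3 with CYT 1 (0.201) correlated more than the same-numbered pairs 1 and 3. Over the tested kinesins the same-numbered values were 0.712, 0.841 and 0.0687, against 0.526 and 0.636 for those crossed pairs. Only for replicate 2 was the same number the best match both over all genes and over kinesins. The replicate block and the numbered pairs rest on these numbers. Replicates differed by far more than sampling noise (chi-square per gene of at least 25), and r between replicates ran from 0.904 to 0.971. Alternatives were DESeq2 1.42.0, limma 3.58.1 on log2 FPKM, RLE and upper-quartile scaling, other filters, a fold criterion, protein-coding genes only, a replicate block, leaving out each library and, added after seeing the data, a GC content and length correction and leaving out both libraries numbered 2.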

Additional observations from a re-analysis of the deposited data

Results flagged for a closer look

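Both results here are signals in genes that share a name with a kinesin but are not protein-coding. KIF9-AS1, antisense to KIF9, had 38, 45 and 38 counts in control and 126, 175 and 146 in CYT libraries, so its lowest CYT library (126) was above every control. The log2 fold change was 2.14 (SE 0.34, adjusted p = 0.00237, edgeR's quasi-likelihood test), from 2.49 ± 0.207 to 11.0 ± 1.86 CPM (SD, n = 3), while KIF9 itself was at 0.42 and not called. KIF25-AS1 had 0 counts in every control library and 1, 18 and 17 in CYT libraries, the lowest being 1. Without a stated strand setting, reads of KIF9 and KIF9-AS1, or of KIF25 and KIF25-AS1, cannot be told apart where they overlap.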

How the results depend on the processing

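The number of kinesin motors called lower was 9 and ran from 6 to 12 over the alternatives, with 6 to 10 when 1 library was left out, and no named kinesin changed direction. KIF18B, KIF20B, KIF7 and KIFC3 stayed called in all 18 alternatives, and KIF16B in all 17 that tested it. KIF25 passed the filter only through its CYT libraries, so its calls are no sign of stability. KIF2C lost its call in 9 alternatives (adjusted p up to 0.122 in edgeR), KIF23 and KIFC1 in 3 each and KIF20A in 1. The motors called higher numbered 1, but 2 without a filter (with KIF5A), 0 under the filter of 5 CPM on average, which KIF25 did not pass, and 2 (with KIF13B) with the GC content and length correction, both without and with the replicate block. The median log2 fold change of the mitotic kinesins (-0.757) was -0.609 with upper-quartile normalization (median of all genes 0.155). It was -0.523 without a filter (all genes 0.412), -0.934 with the GC content and length correction and -0.932 with that and the replicate block, where the median of all genes was -0.105 and -0.108. Leaving out 1 library gave medians from -0.958 (without CYT replicate 2) to -0.571 (without control replicate 2). For the other kinesins the median (-0.0651) ranged from -0.232 to 0.270 in these fits, so its sign changed. The transport median stayed between -0.489 and -0.209 in every alternative. With the replicate block, KIF11, KIF3C and KIF21B joined the calls and no other named kinesin changed its call. Without and with the block, the correction for GC content called KIF5B (adjusted p = 0.0482 and 0.0308 in edgeR), KIF11 (0.00517 and 0.00683) and KIF3C (0.0115 and 0.00352) lower, and not KIF21B. Of all genes, 2002 were called lower, against 3994 with the GC content and length correction, 3887 with that and the block, 3089 with the block, 3055 without both libraries numbered 2, and 1167 to 2679 when 1 library was left out. The causes of these shifts were not tested. Depth limits the 10 motors outside the filter, of which KIF5A was called when no filter was set.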
